A study of Mus musculus with 6 samples.

Results

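The genes described here are 35 pan-vascular endothelial genes, that is, genes known to mark the lining of blood vessels of many kinds. They were read from arrays of mouse hepatic stellate cells, pericytes that store vitamin A beside the liver's capillaries. A member was taken as measured where a probe set carried its gene symbol and no other, and the probe set with the highest mean over the 6 arrays stood for a gene with several. Among the members only Cyyr1 had several, with 2. Of the 35 genes 34 were measured, because Rasip1 had only a probe set that names several genes. Of these, 33 had enough signal to be tested, among 15526 tested genes of 22180 measured. Mmrn1 was the member left out for low signal.

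Stellate cells were isolated from mice of 8 to 11 weeks (young) or of 6 to 9 months (old), the cells of 5 mice being pooled for each sample, and no strain or genotype is named in the labels. For each age there were 3 states with 1 array each. The quiescent cells came from normal liver and had been plated for 12 h. The activated cells had grown on uncoated plastic for more than 20 days, with vehicle or with C-82 at 10 µM. The labels call these treated samples PRI-724, the compound of which C-82 is the active form and which is known to block the binding of beta-catenin to its coactivator CBP. The labels do not state for how long C-82 was present.

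Vascular endothelial cells are held together by junctions built on VE-cadherin, and they sense growth factors through the VEGF receptors and the TIE receptors. Their identity is kept by transcription factors of the ETS family, such as Erg, and of the SOXF group (Sox7, Sox17 and Sox18). In the liver such cells line the portal vessels, the central veins and the sinusoids, beside which the stellate cells lie. As the samples are bulk RNA, fewer cells that carry a gene's RNA and less of that RNA per cell cannot be told apart in any value given here. Which cells of a sample carried it, endothelial, stellate or other, was not measured.

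The RefSeq promoter table of GRCm38.p6, which holds 300 bases around each listed start (250 before and 50 after), matched 21 of the 35 members. The letters ACAGGAA, a form of the ETS motif, stood on either strand in the promoters of 7 of these 21 (33.3%), namely Adgrf5, Egfl7, Emcn, Notch4, Rasip1, Tie1 and Ushbp1. They stood in those of 9.73% of the 27025 genes in the table. The stretches around them are shown for Egfl7 (at 2 of its listed starts), Emcn and Tie1, because these 3 members were lower after PRI-724 past the threshold described below. Adgrf5, Notch4 and Ushbp1 held the letters and did not pass that threshold against vehicle. Kdr, Flt4, Tek, Robo4 and Erg passed it without the letters in their promoters. The other members that passed it had no entry in the promoter table. Capitals mark the matched letters, and TTCCTGT is the same motif on the opposite strand.
Egfl7, chr2:26580962-26581028, plus strand: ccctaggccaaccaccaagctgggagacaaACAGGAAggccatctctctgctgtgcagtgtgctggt
Egfl7, chr2:26583753-26583819, plus strand: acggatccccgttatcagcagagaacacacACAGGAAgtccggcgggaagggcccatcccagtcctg
Emcn, chr3:137340875-137341047, plus strand: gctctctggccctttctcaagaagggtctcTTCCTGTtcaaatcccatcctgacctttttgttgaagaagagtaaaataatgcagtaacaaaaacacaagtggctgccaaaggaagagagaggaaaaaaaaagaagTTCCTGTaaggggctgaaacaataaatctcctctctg
Tie1, chr4:118490022-118490088, minus strand: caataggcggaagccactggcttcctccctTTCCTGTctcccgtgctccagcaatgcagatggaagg
Of the other motifs searched on both strands, CCGGAAG (ETS) stood in the promoters of 1 of the 21 members (4.76%, beside 9.93% of all genes). The letters GATAAG, a motif of GATA factors, stood in those of Erg and Tek (9.52%, beside 8.58%). The SOX motif ACAATAG stood in those of Cyyr1 and Tek (9.52%, beside 2.72%), and ACAAAG in those of Egfl7, Eng, Tek and Ushbp1 (19%, beside 21%). A match describes letters in the reference genome and shows no binding.

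With 1 array to a group, no spread within a group could be measured. In limma a difference between states (n = 2 pairs, young and old) was instead judged by how far the ages disagreed over all 3 states, moderated by the other genes. All p-values below are adjusted over the 15526 genes. A member is said to have risen or fallen where the adjusted p was under 0.05. The labels give a single pool of mice for each group, so the p-values measure only the spread between these 6 samples, and the number of arrays limits the precision. The young PRI-724 array had the narrowest spread of signal, with an interquartile range of 1.71 log2 units over the tested genes, beside 2.11 to 2.43 on the other arrays. Among the brightest 25% of all genes the median difference of PRI-724 from vehicle was -0.42 for young cells and -0.00 for old cells. The 13 members in that class had medians of -3.02 (young) and -1.60 (old). In the next 25% by brightness 13 members had -1.49 and -1.05, beside -0.45 and -0.02 over all its genes. In the class below that 4 members had -0.74 and -0.67, beside 0.00 and -0.03. In the dimmest class 3 members had -0.92 and -0.73, beside 0.37 and 0.00.

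For the labelled cell type, 8 stellate cell genes had a mean log2 signal of 6.95 on the young quiescent array and 7.03 on the old one. It was 8.23 and 8.35 on the vehicle arrays, and 7.10 and 7.78 on the PRI-724 arrays. On the young and old quiescent arrays macrophage genes had means of 8.28 and 9.01, and sinusoidal scavenger genes 9.60 and 7.86. Hepatocyte genes had 6.86 and 10.28, mesothelial genes 5.98 and 5.73, and cholangiocyte genes 6.09 and 6.15. The share of each cell type in a sample was not measured. The members carried signal on the same arrays. Their median log2 signal was 8.33 on the young quiescent array, 7.42 on the old quiescent array, 7.74 on the young vehicle array and 8.25 on the old vehicle array. It was 5.85 on the young PRI-724 array and 6.78 on the old PRI-724 array, the lowest of the 6. For 18 of the 33 tested members the young quiescent array held the highest of the 6 values, which was so for 16.5% of all genes. For 31 of 33 a PRI-724 array held the lowest value, beside 37% of all genes, and for 25 it was the young PRI-724 array, beside 26.9%.

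**Figure D1:**
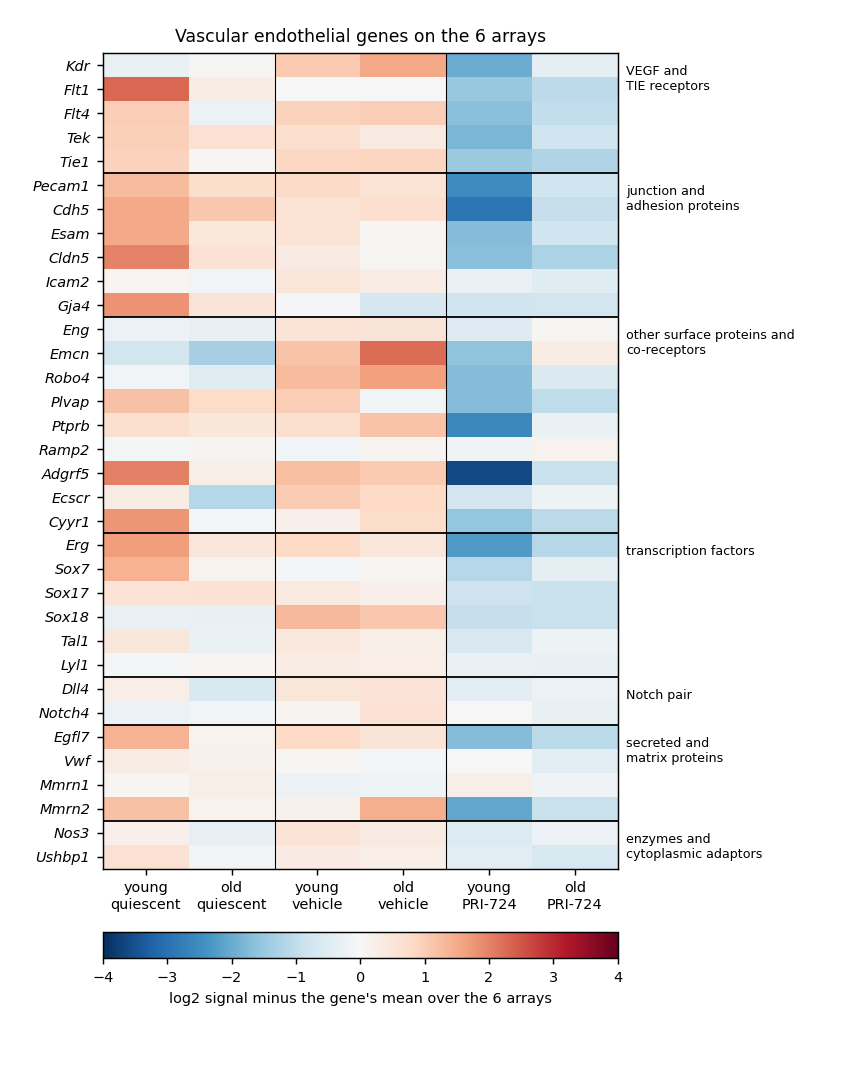
Log2 signal of the 34 measured members (the untested Mmrn1 included) on each of the 6 arrays, shown as the difference from that member's own mean over the 6 arrays. Members are grouped by role. For 31 of the 33 tested members the lowest value is in a PRI-724 column.

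The first question was what happened to the vascular genes as stellate cells were activated in culture. Vehicle-treated activated cells were compared with quiescent cells. The members moved apart, with 5 that rose, 1 that fell and 27 that did not pass the test. Over all genes 4.61% rose and 1.26% fell. The members' median difference was 0.04, beside 0.04 over all genes, while the range ran from -1.52 to 2.73 and the standard deviation over members was 0.90, beside 0.62 over all genes. The count of risen members was 2 without the old quiescent array, 2 without the young vehicle array and 3 without either PRI-724 array. The count of fallen members was 6 without the old quiescent array, 2 without the old vehicle array, and 0 without the young quiescent, the young vehicle or either PRI-724 array. With the arrays rescaled by cyclic loess 1 member rose and 1 fell, and by quantiles 1 rose and 0 fell. The median also depended on single arrays, and was 0.49 without the young quiescent array (0.08 over all genes) and -0.22 without the old quiescent array (0.03 over all genes). After cyclic loess it was -0.14, beside -0.03.

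Emcn, the sialomucin endomucin of veins and capillaries, had log2 signals of 5.89 and 5.28 on the young and old quiescent arrays and of 7.76 and 8.87 on the vehicle arrays. Both vehicle arrays were above both quiescent arrays, and Emcn rose by 2.73 ± 0.49 (SE, adjusted p = 0.015), the largest rise among the members. Robo4, a guidance receptor that keeps vessels from leaking, stood at 7.78 and 7.41 in quiescent cells and at 9.17 and 9.54 with vehicle. It rose 3.39-fold, by 1.76 ± 0.37 on the log2 scale (adjusted p = 0.0239).

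Sox18, a SOXF factor of vessel and lymphatic development, had 5.06 and 5.03 in quiescent cells and 6.63 and 6.43 with vehicle. The young and the old array lay close to each other in both states, and it rose by 1.48 ± 0.24 (adjusted p = 0.0104). Kdr, the main signalling receptor for VEGF-A, went from 7.51 and 7.83 to 8.83 and 9.30, a rise of 1.40 ± 0.35 (adjusted p = 0.0486). Eng, the TGF-beta co-receptor endoglin, went from 11.21 and 11.13 to 12.01 and 11.96, a rise of 0.82 ± 0.20 (adjusted p = 0.0413). For these 5 genes every vehicle value lay above every quiescent value. Such a separation was seen in 12 of 33 members and in 33% of all genes.

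Gja4, the gap junction protein connexin 37 of arteries, fell. Its log2 signal was 8.42 and 7.14 on the young and old quiescent arrays and 6.55 and 5.98 on the vehicle arrays, a fall by 1.52 ± 0.33 (adjusted p = 0.0304). The vehicle arrays were both below both quiescent arrays, as in 7 of 33 members and 24.9% of all genes. The decoy VEGF receptor Flt1 and the tight junction protein Cldn5 were also below their quiescent values in both pairs without passing the test. Flt1 was at 9.02 and 7.01 in quiescent cells and at 6.72 on both vehicle arrays (-1.29 ± 0.49, adjusted p = 0.157), and its difference was -2.29 between the young arrays and -0.29 between the old ones. Cldn5 was at 8.95 and 7.52 in quiescent cells and at 7.27 and 6.99 with vehicle (-1.10 ± 0.40, adjusted p = 0.137). For both genes the young quiescent array was the highest of the 6.

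Genes of endothelial junctions gave other values than Kdr, Emcn and Robo4. VE-cadherin (Cdh5) had a difference of -0.70 ± 0.44, PECAM-1 (Pecam1) one of -0.34 ± 0.45 and the junction protein Esam one of -0.68 ± 0.43, and none passed the test. Of the 6 junction and adhesion genes 5 had lower means with vehicle, beside 7288 of all 15526 genes. The median of the 6 was -0.69, at -0.98 for young and -0.40 for old cells. Of the 9 other surface proteins 3 rose (Eng, Emcn and Robo4), beside 4.61% of all genes. The median of the 9 was 0.35, at 0.03 for young and 0.82 for old cells. Ecscr, a surface protein of endothelial migration, was at 7.78 and 6.34 in quiescent cells and at 8.51 and 8.27 with vehicle (1.33 ± 0.42, adjusted p = 0.0945). The transcription factors also differed among themselves, with Sox18 risen, Sox7 at -0.76 ± 0.43, Erg at -0.43 ± 0.46 and Sox17 at -0.27 ± 0.27. The Notch ligand Dll4 (0.67 ± 0.30) and the receptor Notch4 (0.52 ± 0.30) did not pass the test, nor did the nitric oxide synthase Nos3 (0.50 ± 0.29). Ramp2, a subunit of the adrenomedullin receptor, stayed between 6.56 and 6.89 on all 6 arrays.

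The young and the old pair did not always point the same way. Of the 33 members 12 were higher with vehicle in both pairs (40.7% of all genes), 11 lower in both (33.4%), and 10 lower in the young pair but higher in the old pair. That last pattern was seen in 13.8% of all genes, and no member showed its reverse. The median over the members was -0.16 for young and 0.42 for old cells, beside 0.04 and 0.05 over all genes. Cyyr1, a small membrane protein of little known function, differed by -1.53 for young cells and by 0.82 for old ones in the brighter of its 2 probe sets. The adhesion receptor Adgrf5 differed by -0.81 and 0.80, and the matrix protein Mmrn2 by -0.99 and 1.32. With 1 array in each group these differences between ages could not be tested. Across the 33 members the young-pair and old-pair differences correlated with r = 0.71 and rho = 0.67, beside r = 0.67 and rho = 0.65 across all genes. The members are genes and not replicates, and the 2 pairs share no array.

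**Figure D2:**
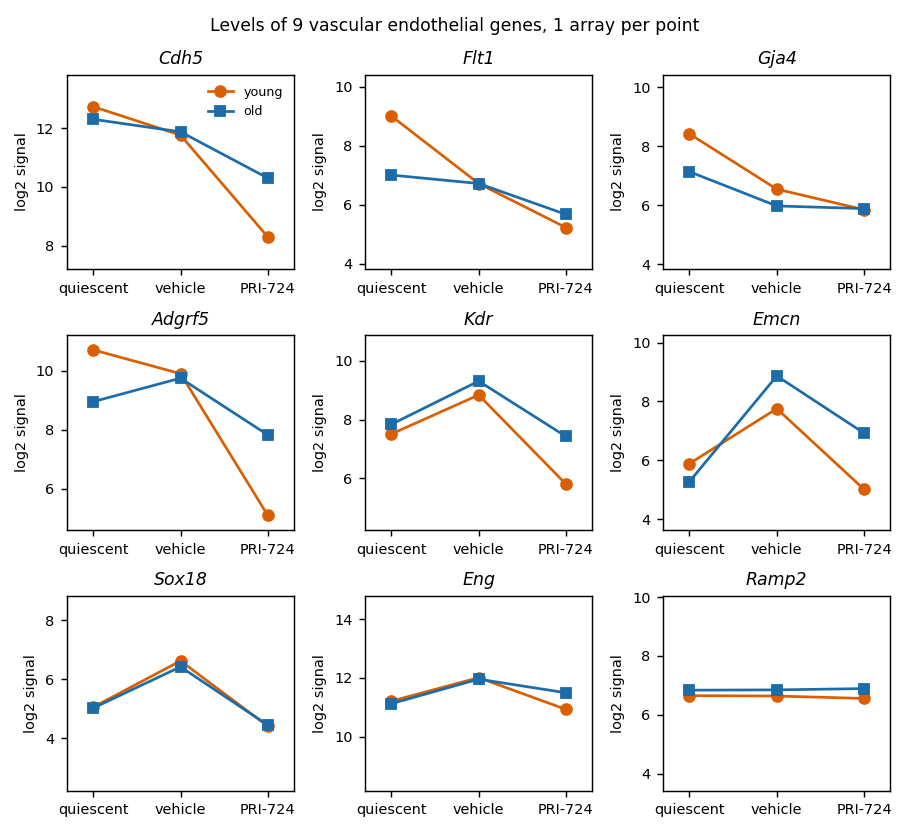
Log2 signal of 9 members in the 3 states, with the young (circles) and old (squares) arrays drawn as separate lines, 1 array per point. All panels span the same number of log2 units. Emcn, Kdr and Sox18 peak with vehicle, Flt1 and Gja4 are highest in young quiescent cells, Cdh5 and Adgrf5 are lowest with PRI-724, and Ramp2 is flat.

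The second question was how the vascular genes differed between activated cells given C-82 and those given vehicle. By limma 14 members fell, 0 rose and 19 did not pass the test. All 33 had a lower mean with PRI-724 in the deposited scaling, 32 after cyclic loess or quantile scaling and 31 with arrays centred on their medians. Over all genes 1.93% fell and 0.271% rose. At an unadjusted p under 0.05 there were 28 lower members and no higher one, beside 2404 of all 15526 genes in either direction. The median difference was -1.65 over the members and -0.05 over all genes, with a range over the members from -3.37 to -0.02. In 31 of 33 members both PRI-724 arrays lay below both vehicle arrays, which was so for 26.3% of all genes. Ramp2 and Vwf were the exceptions. Of the 33 members 32 were lower with PRI-724 in both the young and the old pair, beside 35% of all genes.

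These calls depended on the young PRI-724 array. Without it limma called 0 of the 33 members and 0 of all 15526 genes, with 16 members at an unadjusted p under 0.05 and a member median of -1.09. In the old pair alone 19 of 33 members were at least 2-fold lower, beside 2.84% of all genes, and the median was -1.08. In the young pair 25 were at least 2-fold lower, beside 12.3% of all genes, and the median was -1.99. The same 19 members were at least 2-fold lower in both pairs, beside 2.36% of all genes. The count of fallen members was 22 without either quiescent array. With the arrays rescaled by cyclic loess or by quantiles it was 3, namely Kdr, Robo4 and Sox18.

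Among the receptors for VEGF and angiopoietins 4 of 5 fell, with a median of -2.17. Kdr had log2 signals of 8.83 and 9.30 on the young and old vehicle arrays and of 5.81 and 7.42 on the PRI-724 arrays. Both treated values lay below both vehicle values, and Kdr fell by 2.45 ± 0.35, or 5.47-fold (adjusted p = 0.00789). Flt4, the receptor for VEGF-C and VEGF-D, was at 8.68 and 8.75 with vehicle and at 6.11 and 6.80 with PRI-724, and fell by 2.26 ± 0.41 (adjusted p = 0.0231). Tie1, an orphan partner of the angiopoietin receptor, was at 8.24 and 8.30 with vehicle and at 5.96 and 6.23 with PRI-724. It fell by 2.17 ± 0.33 (adjusted p = 0.0112), and its young and old pair differed least among these 5 receptors, with -2.28 and -2.07. Tek, the angiopoietin receptor TIE2, was at 7.74 and 7.42 with vehicle and at 5.25 and 6.28 with PRI-724 (-1.82 ± 0.37, adjusted p = 0.0364). Flt1 was at 6.72 on both vehicle arrays and at 5.23 and 5.68 with PRI-724, which did not pass the test (-1.27 ± 0.49, adjusted p = 0.254).

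Of the 6 junction and adhesion genes 2 fell, with a median of -1.60. Cdh5 was at 11.76 and 11.87 with vehicle and at 8.30 and 10.30 with PRI-724, with the young treated array the lowest of the 6. It fell by 2.51 ± 0.44 (adjusted p = 0.0206), which was 11-fold for young and 2.97-fold for old cells. Pecam1, an adhesion protein at the contacts between endothelial cells, went from 10.29 and 10.07 to 7.01 and 8.73, a fall by 2.31 ± 0.45 (adjusted p = 0.0336). Cldn5 (-1.65 ± 0.40, adjusted p = 0.0713) and Esam (-1.54 ± 0.43, adjusted p = 0.107) did not pass the test. Icam2, a ligand of leukocyte integrins, had a smaller difference of -0.77 ± 0.24 (adjusted p = 0.162). Gja4, which had fallen during activation, was at 6.55 and 5.98 with vehicle and at 5.85 and 5.89 with PRI-724 (-0.39 ± 0.33).

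Of the 9 other surface proteins 4 fell, with a median of -1.82. Robo4 was at 9.17 and 9.54 with vehicle and at 6.15 and 7.32 with PRI-724, a fall by 2.62 ± 0.37, or 6.14-fold (adjusted p = 0.00667). That was the largest called fall among the members. Emcn went from 7.76 and 8.87 to 5.02 and 6.92, and the young treated value was the lowest of its 6. Its fall was 2.34 ± 0.49 (adjusted p = 0.0414), with pairs of -2.74 and -1.94. Ptprb, the vascular endothelial phosphatase that acts on TIE2 and VE-cadherin, went from 8.82 and 9.29 to 5.57 and 7.88 (-2.33 ± 0.49, adjusted p = 0.0433). Plvap, which forms the diaphragms of fenestrae and caveolae, went from 9.40 and 8.33 to 6.69 and 7.40 (-1.82 ± 0.39, adjusted p = 0.0465). The fall of Plvap was 6.53-fold for young cells and 1.9-fold for old ones.

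The largest difference among the members belonged to Adgrf5 and did not pass the test. It was at 9.90 and 9.75 with vehicle and at 5.09 and 7.82 with PRI-724. The differences in the young and old pairs were -4.81 and -1.93. The mean of -3.37 had a standard error of 0.77 (adjusted p = 0.0593), which the fit draws from all 3 states. Cyyr1 (-1.79 ± 0.51, adjusted p = 0.118) and Ecscr (-1.40 ± 0.42, adjusted p = 0.141) were also at least 2-fold lower in both pairs and not called. The values of Cyyr1 are those of the brighter of its 2 probe sets. Over the alternative settings, which include the mean of both, its difference ran from -2.39 to -0.81. Eng, one of the genes that rose in activation, was at 12.01 and 11.96 with vehicle and at 10.93 and 11.50 with PRI-724. Its difference was smaller (-0.77 ± 0.20, adjusted p = 0.0876), and against its quiescent values of 11.21 and 11.13 the treated values differed by -0.28 in young and 0.37 in old cells.

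Of the 6 transcription factors 2 fell, with a median of -0.96. Erg, the ETS factor of endothelial identity, was at 8.72 and 8.38 with vehicle and at 5.66 and 6.78 with PRI-724. It fell by 2.33 ± 0.46 (adjusted p = 0.0344). Sox18 was at 6.63 and 6.43 with vehicle and at 4.41 and 4.45 with PRI-724, below all 4 other arrays, and fell by 2.10 ± 0.24 (adjusted p = 0.00317). This was the smallest adjusted p among the members, and the pairs were close to each other at -2.21 and -1.98. Both treated values lay under the 4.70 that served as the filter on mean signal, so the size of this fall rests on signals near the bottom of the scale. Sox17, a SOXF factor of arteries, went from 7.68 and 7.49 to 6.46 and 6.41 (-1.15 ± 0.27, adjusted p = 0.0659), so both pairs were at least 2-fold lower without a call. Sox7 had -0.77 ± 0.43. The factors Tal1 and Lyl1, which endothelial and blood-forming cells share, had -0.72 ± 0.30 and -0.55 ± 0.24.

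Of the secreted and matrix proteins 2 of 3 fell. Egfl7, an endothelial matrix factor that hosts a microRNA in its introns, went from 9.07 and 8.80 with vehicle to 6.56 and 7.20 with PRI-724 (-2.06 ± 0.40, adjusted p = 0.0316). Mmrn2, a matrix protein that binds VEGF-A, went from 8.70 and 9.99 to 6.47 and 7.64 (-2.29 ± 0.49, adjusted p = 0.0465). It was among the 6 members whose difference was no more negative in the young than in the old pair, at -2.24 and -2.35. Vwf, the clotting protein von Willebrand factor, was low and flat, between 4.79 and 5.51 on the 6 arrays (-0.18 ± 0.25). Mmrn1, a stored protein of platelets and endothelium that was not tested, was between 4.37 and 4.86. Of the Notch pair neither gene passed the test: Dll4 had -0.82 ± 0.30 and Notch4 -0.49 ± 0.30. Nos3 and Ushbp1 both had -0.82, with standard errors of 0.29 and 0.27.

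**Figure D3:**
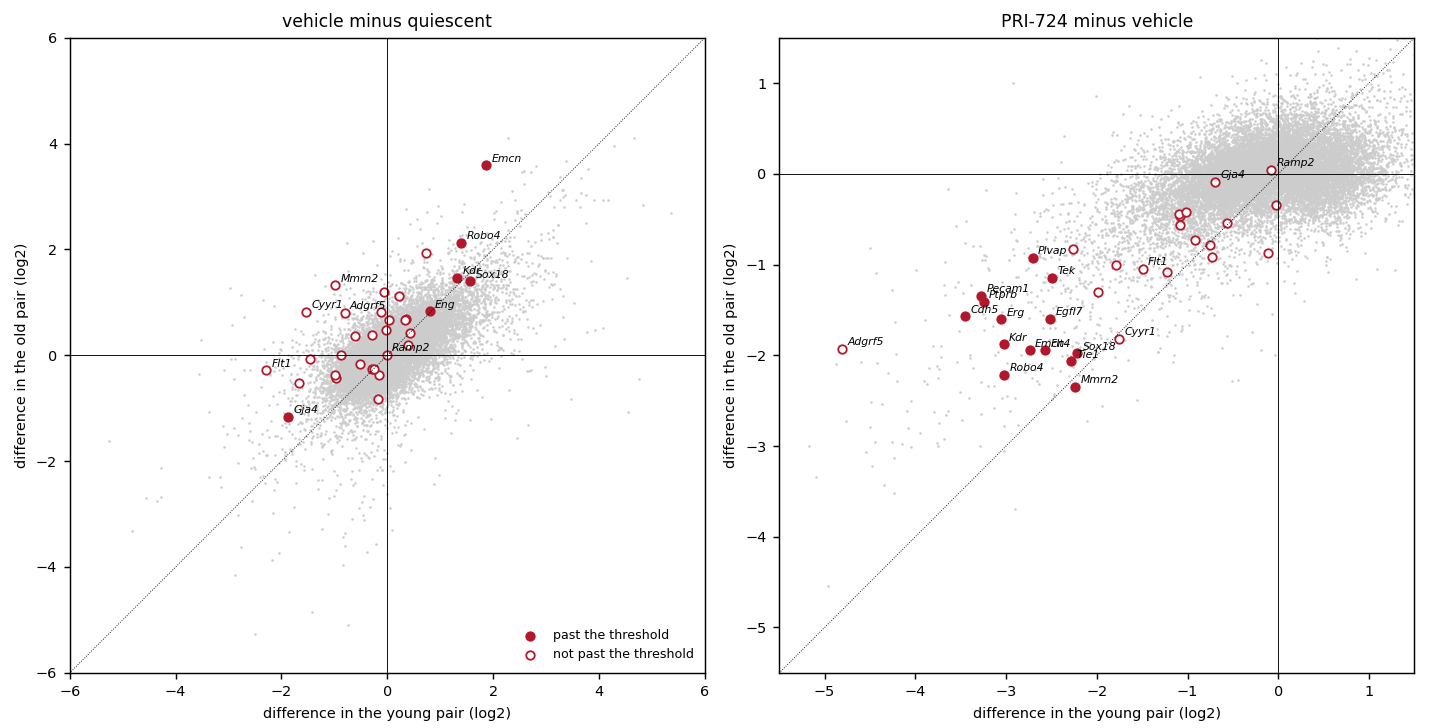
Log2 difference in the young pair against the old pair, for vehicle minus quiescent and for PRI-724 minus vehicle, with members as red circles, filled where past the threshold, the tested genes within the axes in grey and a dotted line of equal differences. In activation 12 members are higher in both pairs and 11 lower in both. With PRI-724 all but Ramp2 are lower in both pairs, and 27 of 33 have the more negative value in the young pair.

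The 14 members that fell with PRI-724 had not behaved alike in activation. Kdr, Emcn, Robo4 and Sox18 had risen, and the other 10 had not passed the test. Eng rose in activation and did not pass with PRI-724, Gja4 fell in activation and did not pass with PRI-724, and 17 members passed neither test. The comparisons share the vehicle arrays.

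The third question was how treated activated cells compared with quiescent cells. Of the 33 members 15 fell, 0 rose and 18 did not pass the test by limma, beside 2.43% fallen and 1.28% risen over all genes. At an unadjusted p under 0.05 there were 22 members, all lower, beside 2528 of all 15526 genes in either direction. Without the young PRI-724 array 0 members and 0 of all genes were called, without the old PRI-724 array 7, and without the young quiescent array 8. The median was -1.53, at -2.40 for young and -0.74 for old cells, and 0.03 over all genes, and 14 members were at least 2-fold lower in both pairs (2.22% of all genes). In 25 of 33 members both PRI-724 arrays lay below both quiescent arrays, beside 18% of all genes.

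Of the 6 junction and adhesion genes 5 fell (all but Icam2). Cdh5 was at 12.73 and 12.30 in quiescent cells, against the 8.30 and 10.30 after PRI-724 (-3.21 ± 0.44, adjusted p = 0.0037). Cldn5 went from 8.95 and 7.52 to 5.28 and 5.69, a fall by 2.75 ± 0.40 (adjusted p = 0.00499), and Gja4 from 8.42 and 7.14 to 5.85 and 5.89, a fall by 1.91 ± 0.33 (adjusted p = 0.0129). For Cldn5 and Gja4 both treated values lay below both quiescent values. Flt1 went from 9.02 and 7.01 to 5.23 and 5.68 (-2.56 ± 0.49, adjusted p = 0.0206), and Sox17 from 7.84 and 7.87 to 6.46 and 6.41 (-1.42 ± 0.27, adjusted p = 0.0198). Flt1, Esam, Cldn5, Gja4, Adgrf5, Cyyr1 and Sox17 passed the test in this comparison and not against vehicle, and that difference was not tested. Cyyr1 (adjusted p = 0.0499) was again read from the brighter of its 2 probe sets.

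Adgrf5 fell by 3.37 ± 0.77 (adjusted p = 0.0431), from 10.71 and 8.95 to 5.09 and 7.82, with pairs of -5.62 and -1.13. Erg fell by 2.76 ± 0.46 from 9.58 and 8.38 (adjusted p = 0.0105). The members that had risen in activation did not pass. Kdr had -1.06 ± 0.35, Robo4 -0.86 ± 0.37, Sox18 -0.61 ± 0.24 and Eng 0.04 ± 0.20. For Kdr, Robo4 and Sox18 both treated values still lay below both quiescent values. The quiescent arrays used here are those of the activation comparison, so the 2 results are not independent. Emcn was at 5.89 and 5.28 in quiescent cells and at 5.02 and 6.92 after PRI-724, lower in the young pair by -0.88 and higher in the old pair by 1.64 (0.38 ± 0.49, adjusted p = 0.822).

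The fourth question was the age of the mice. Over the 3 states limma called 0 of 33 members, beside 0.264% of all genes higher and 0.251% lower in old cells. At an unadjusted p under 0.05 there was 1, Kdr (0.81 ± 0.29, adjusted p = 0.358), beside 1615 of all 15526 genes. The members' median was -0.13 over the 3 states, beside 0.04 over all genes. Without the young or without the old quiescent array it was 0.22, beside 0.06. Either run takes the age difference from the vehicle and PRI-724 pairs alone, so they are not separate checks. The differences ran in opposite directions in different states. In quiescent cells 28 of 33 members were lower in old than in young cells (46.3% of all genes), with a median of -0.61, and 12 were at least 2-fold lower (2.98% of all genes). With PRI-724 27 of 33 were higher in old cells (60.7%), with a median of 0.54, and 10 were at least 2-fold higher (5.46%). With vehicle the median was -0.05, and 30 of 33 lay within 2-fold of each other (97.1% of all genes).

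The same 25 members were lower in old quiescent cells and higher in old PRI-724-treated cells, which was so for 25.7% of all genes. Flt1 was 4.01-fold lower on the old than on the young quiescent array, equal on the vehicle arrays and 1.36-fold higher on the old PRI-724 array. Adgrf5 had old minus young differences of -1.76 in quiescent, -0.15 in vehicle-treated and 2.73 in PRI-724-treated cells. Cdh5 had -0.43 in quiescent cells and 0.11 with vehicle, and was 3.99-fold higher in old cells with PRI-724, and Ptprb had -0.16, 0.47 and 2.31. Sox17, Sox18, Lyl1, Icam2 and Ramp2 differed by no more than 0.33 between the ages in any state. Hepatocyte genes (Alb, Ahsg, Cyp2e1 and 3 others) had old minus young medians of 3.39 in quiescent cells, 2.52 with vehicle and 0.94 with PRI-724. Their mean log2 signal was 6.86 on the young quiescent array and 10.28 on the old one. Over the 3 states limma called 3 of these 6 genes higher in old cells. The 9 sinusoidal scavenger genes were all lower in old quiescent cells, with a median of -1.56. With PRI-724 all 6 myofibroblast genes were at least 2-fold higher in old cells, with a median of 2.39, and the stellate cell genes had a median of 0.74. The young PRI-724 array of this comparison is the one with the narrowest spread of signal. The part of these lists and of that array in the members' age differences was not tested.

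**Figure D4:**
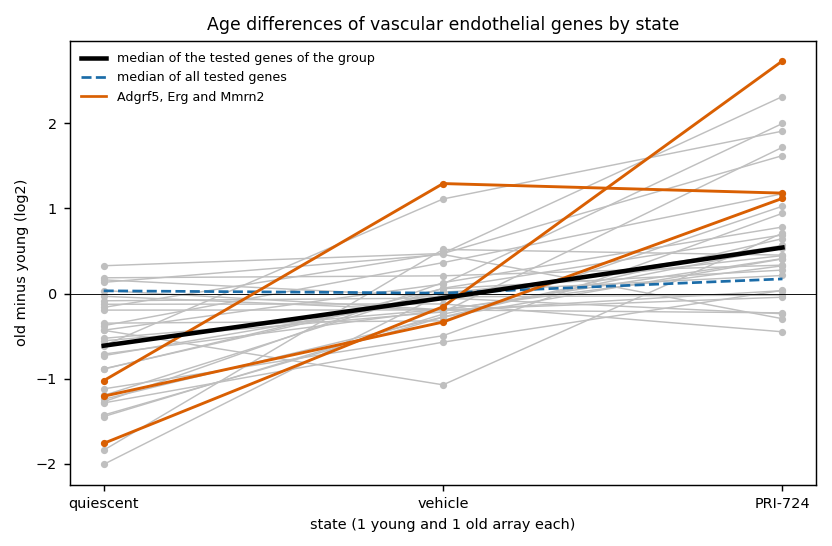
Old minus young log2 difference of each tested member in the 3 states, with Adgrf5, Erg and Mmrn2 picked out in colour, the members' median in black and the median of all tested genes as a dashed line. The members' median is -0.61 in quiescent cells, -0.05 with vehicle and 0.54 with PRI-724, and that of all genes stays between 0.01 and 0.17.

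Genes that act with the members gave a mixed picture. The list held 30 vascular ligands, receptors' partners and endothelial factors, of which 29 were tested. In activation 3 rose and 1 fell, with a median of 0.17, and with PRI-724 5 fell and 1 rose, with a median of -0.51. Angpt2, the endothelial antagonist of TIE2, was at 9.84 and 9.62 with vehicle and at 5.42 and 7.54 with PRI-724, a fall by 3.25 ± 0.50 (adjusted p = 0.0118). The ETS factor Fli1 fell by 2.07 ± 0.31 (adjusted p = 0.0102), and the sphingosine 1-phosphate receptor S1pr1 by 2.75 ± 0.58 (adjusted p = 0.0433). Nrp1, a co-receptor of Kdr, had -2.19 ± 0.63 (adjusted p = 0.125). Vegfd, a ligand of Flt4, rose in activation by 2.04 ± 0.37 (adjusted p = 0.0155) and fell with PRI-724 by 1.90 ± 0.37 (adjusted p = 0.0314). Gdf2, or BMP9, a ligand that Eng binds, rose by 1.78 ± 0.35 (adjusted p = 0.0207) and had -1.31 ± 0.35 with PRI-724.

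Sinusoidal endothelial and macrophage markers moved with the members from vehicle to PRI-724. Of 9 tested scavenger genes of liver sinusoidal endothelium 8 fell with PRI-724. Their median was -4.15 for young and -2.98 for old cells, beside -1.99 and -1.08 for the members. Their mean log2 signal was 9.60 and 7.86 on the young and old quiescent arrays, 9.27 and 8.68 with vehicle, and 5.55 and 6.01 with PRI-724. Of 10 macrophage genes 8 fell too, with mean signals of 8.60 and 8.44 with vehicle and 5.66 and 5.92 with PRI-724. In activation the macrophage median was 0.36 for young and -0.42 for old cells, beside -0.16 and 0.42 for the members. Between old and young quiescent cells the macrophage median was 0.65, beside -0.61 for the members. The part of either cell type in the members' differences was not tested. In activation the sinusoidal gene Oit3 rose 8.01-fold (adjusted p = 0.00408), while Lyve1 differed by -2.76 in young and 1.14 in old cells. The lymphatic list (Prox1, Pdpn and Reln) and the platelet list (4 genes tested) had 0 fallen genes with PRI-724 by limma. Prox1 (4.32 to 5.11), Itga2b (5.57 to 5.71) and Gp9 (5.29 to 5.96) were low on all 6 arrays, so a fall could hardly show in them. This was not so for Pdpn, Reln and Itgb3. At an unadjusted p under 0.05 there were 1 lymphatic gene, Pdpn, with a higher signal (1.12 ± 0.38), and 2 platelet genes, Itgb3 and Pf4, with lower ones (-1.16 ± 0.38 and -0.82 ± 0.34). Reln is known from stellate cells as well. Of the stellate cell genes 2 of 8 fell with PRI-724, with a median of -0.66. By limma 0 of 6 myofibroblast, 0 of 6 hepatocyte, 0 of 5 mesothelial and 0 of 3 cholangiocyte genes were called in that comparison, with 4, 3, 1 and 0 at an unadjusted p under 0.05. The medians of these lists were -1.40, 1.03, -0.16 and 0.14 in the same order.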

How the data were processed

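Per the labels' protocols, total RNA was purified on columns and labelled with the Affymetrix WT PLUS kit. The values as deposited were log2 signals made with Affymetrix Expression Console and RMA per the submitters' processing notes. Their versions were not given in the sources used here. By its usual definition RMA corrects the background, aligns the arrays by quantiles and sums up the probes of a set.

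The platform's annotation named a single gene for 23521 of the 41345 probe sets, more than one for 1814 and no gene for 16010. The probe set with the highest mean stood for each of 22180 genes. The 30% of genes with the lowest mean (under 4.70 log2) were left out, which left 15526. Differences were fitted over all 6 arrays with limma 3.58.1 in R 4.3.3 (age and state in the model, eBayes with an intensity trend, 2 residual and 7.76 prior degrees of freedom), with Benjamini-Hochberg adjustment over all tested genes and a threshold of 0.05. SE is that of the moderated fit. The fit was run on simulated data with added shifts and independent noise of the same size on every array. Those data held no array with a narrower spread, so they do not show how the fit behaves with such an array. Figures and promoter searches used Python 3.11.15, pandas 2.3.3 and matplotlib 3.10.9.

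All members may be named, and of each other list the 4 tested genes with the largest mean absolute difference over activation and treatment (6 for ligands and partners). Members, lists and this rule were chosen with earlier results of these data known. The marker lists were sinusoidal, lymphatic, macrophage, platelet, stellate cell, myofibroblast, hepatocyte, mesothelium, cholangiocyte and red cell genes. The last had no usable probe set. The alternatives were other filters, probe set means, no trend, fewer model terms or arrays, 3 scalings and each array left out in turn.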

Additional observations from a re-analysis of the deposited data

Results flagged for a closer look

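In 3 members the young and the old cells stood at least 2-fold apart in opposite directions in different states, and with 1 array in each group this difference was not tested. Adgrf5, an adhesion receptor of endothelium, had an old minus young log2 difference of -1.76 in quiescent cells and of 2.73 with PRI-724. Erg, the ETS factor, had -1.20 in quiescent cells and 1.12 with PRI-724. Mmrn2, the VEGF-A-binding matrix protein, had -1.02 in quiescent cells and 1.29 with vehicle.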

How the results depend on the processing

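In activation the count of risen members was 5. It was 3 with no filter on low signal, with the mean of all probe sets, with only the arrays of the states compared and with arrays centred on their medians, and 1 with age left out of the model, with cyclic loess and with quantile normalization. The 1 fallen member became 0 with age left out, with only the compared arrays and with quantile normalization. Leaving out each array in turn gave 2 to 6 risen and 0 to 6 fallen members. The 14 members that fell from vehicle to PRI-724 became 9 with the lowest 50% of genes left out, 3 with age left out, with cyclic loess or with quantile normalization, 5 with centred arrays and 22 with only the compared arrays. Leaving out each array gave 0 to 22. From quiescent to PRI-724, 15 fallen members became 8 with age left out, and leaving out each array gave 0 to 18. With age, leaving out each array gave 0 to 4 higher members in old cells.

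No called member changed its direction in any of these settings, and none was called in all of them. Sox18, not tested with the lowest 50% of genes left out, kept its fall with PRI-724 in 13 of 14 settings, Robo4 in 14 of 15 and Kdr in 13 of 15. Of the members not called, 16 in activation, 3 in PRI-724 minus vehicle, 7 in PRI-724 minus quiescent and 23 with age changed their sign in some setting. Centring the arrays moved the median of all genes from 0.04 to -0.21 in activation and from -0.05 to 0.15 in PRI-724 minus vehicle. Where no cause is given, it was not tested. Low signal limits Mmrn1, Vwf, Dll4 and Sox18, some of whose values lie close to or below the filter.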
